A study of Mus musculus with 24 samples.

Results

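Creatine synthesis and creatine kinases are represented by 6 genes of the mouse kidney, taken by name from the 19505 named genes of the array. They are Gatm (probe TC0200004511.mm.2), Gamt (TC1000002493.mm.2), Ckb (TC1200002411.mm.2), Ckm (TC0700000301.mm.2), Ckmt1 (TC0200001810.mm.2) and Ckmt2 (TC1300002417.mm.2). Each was read by 1 probe, and all 6 were tested. Gatm and Gamt encode the enzymes that make creatine, and the other 4 encode the kinases that charge it with phosphate.

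Male C57BL/6N mice, 10 weeks old, were studied; RNA of their halved kidneys was extracted and hybridised to 24 Mouse Clariom S arrays. The groups were sham - mock (5 arrays), sham - anti-miR-22 (5), Rhabdo - mock (7) and Rhabdo - anti-miR-22 (7), where Rhabdo stands for rhabdomyolysis, the breakdown of skeletal muscle. Rhabdo animals had 50% glycerol injected into the gastrocnemic muscle, which leads to acute kidney injury, and sham animals had the same procedure without glycerol. The labels list a milder and a more severe glycerol volume without saying which these animals had. Every animal, sham included, had been given 1 of the oligonucleotides subcutaneously (20 mg/kg) 24 h earlier. All also had drinking water withheld for 23 h, isoflurane narcosis and the analgesic carprofen at 5 mg/kg, so the sham animals are not untreated. The kidneys were collected 24 h after glycerol or its omission. No label states that each array is a separate animal, so the p-values reflect array-to-array spread, which may be technical.

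Creatine is made in 2 steps. GATM, in mitochondria, joins arginine and glycine into guanidinoacetate and releases ornithine; the kidney's proximal tubule is known as a main site of this step. GAMT then methylates guanidinoacetate with S-adenosylmethionine, mostly in liver. Creatine kinases move phosphate between ATP and creatine: CKB is the cytosolic brain-type enzyme, CKM the cytosolic muscle type whose appearance in blood marks muscle breakdown, CKMT1 the ubiquitous mitochondrial type and CKMT2 the mitochondrial type of striated muscle. In kidney, brain-type and ubiquitous mitochondrial enzymes are known from tubule segments with heavy ion transport.

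The oligonucleotide treatment is shown by the microRNA and the 2 designed molecules, because the second set of comparisons turns on it. The microRNA sequence is from RefSeq (GRCm38.p6, chr11:75463772-75463793, plus strand) with its seed, bases 2 to 8, in capitals. Anti-miR-22 is complementary to bases 2 to 16 of it. In the 15-base oligonucleotides, capitals mark the 4 positions at which they differ.
mmu-miR-22-3p: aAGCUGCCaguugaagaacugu
anti-miR-22: ctTcAacTggcAgct
mock: ctAcTacAggcTgct

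The bases upstream of 4 members are shown because these genes fell in both glycerol comparisons. The sequences are from RefSeq (GRCm38.p6), where all 6 members had a window of 250 bases before to 50 after a start, and they are clipped to the bases outside the gene. Capitals mark matches, on either strand, to the CCAAT box (its letters), the TATA box (TATAAA) or the GC box (GGGCGG). Ckmt1 had a second window, which is not shown.
Gatm (chr2:122611278-122611527, minus strand): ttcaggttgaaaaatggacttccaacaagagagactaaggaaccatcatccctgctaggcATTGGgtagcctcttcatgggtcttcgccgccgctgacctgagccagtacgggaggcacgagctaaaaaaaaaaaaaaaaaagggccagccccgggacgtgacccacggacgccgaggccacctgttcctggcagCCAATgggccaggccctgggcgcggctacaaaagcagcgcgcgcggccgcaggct
Gamt (chr10:80261026-80261262, minus strand): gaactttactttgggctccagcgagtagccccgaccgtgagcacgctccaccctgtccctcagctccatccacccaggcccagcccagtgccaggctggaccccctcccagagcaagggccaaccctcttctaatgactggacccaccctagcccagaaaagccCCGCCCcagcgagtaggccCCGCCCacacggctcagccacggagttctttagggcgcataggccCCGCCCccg
Ckb (chr12:111672339-111672588, minus strand): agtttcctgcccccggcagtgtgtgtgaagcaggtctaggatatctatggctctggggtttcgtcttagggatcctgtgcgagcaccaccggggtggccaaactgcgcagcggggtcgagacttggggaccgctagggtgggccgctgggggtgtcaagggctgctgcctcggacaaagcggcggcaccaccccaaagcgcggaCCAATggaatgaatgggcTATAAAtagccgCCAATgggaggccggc
Ckmt1 (chr2:121357526-121357772, plus strand): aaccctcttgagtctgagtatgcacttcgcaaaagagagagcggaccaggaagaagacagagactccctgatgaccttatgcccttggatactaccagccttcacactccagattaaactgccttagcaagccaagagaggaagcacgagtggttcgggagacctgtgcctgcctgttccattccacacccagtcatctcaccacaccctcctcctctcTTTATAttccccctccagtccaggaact

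The Gatm and Ckb windows each held 2 matches to CCAAT, a motif found in 37.4% of all 32817 mouse windows of 300 bases. Ckb and Ckmt1 also held TATAAA (13.6% of windows), at positions -28 and -31 from the start. The Gamt window held 4 matches to GGGCGG (35.6% of windows), of which 3 lie in the printed part. None of these 3 motifs was found in all 4 windows. The windows of the members that did not pass the test differed from each other: Ckmt2 held 2 matches to CCAAT and 1 to GGGCGG, and Ckm held none of the 3 motifs. The E-box, CANNTG (72.3% of windows), was also searched and is not in capitals; it had 1 match each in the Gatm, Gamt, Ckm and shown Ckmt1 windows, 4 in Ckmt2 and 0 in Ckb. A match describes letters in this window and no binding was measured.

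The arrays were comparable in scale. Array medians lay between 5.752 and 5.857 on the deposited log2 scale, lower quartiles between 3.909 and 4.028, and array pairs correlated at 0.949 to 0.9928. All 19 measured proximal tubule markers had group means above the array medians in all 4 groups. Sham - mock 1 stood apart in injury genes, with Havcr1, a tubular injury gene, at 14.59 against 7.00 to 7.74 on the other 4 arrays of its group. Its values for the creatine genes lay within the range of the other sham - mock arrays, apart from Ckmt2 (3.44, where the others started at 3.49).

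The question of what glycerol injury does to these genes was asked within each oligonucleotide. Gatm, Gamt, Ckb and Ckmt1 fell with mock and fell again with anti-miR-22, and Ckm and Ckmt2 did not pass the test in either. That is 4 of 6 members in each comparison, all lower. Over all 22205 probes, 34.4% were called with mock (16.4% lower) and 37.4% with anti-miR-22 (17.6% lower), at a limma adjusted p (Benjamini-Hochberg over all probes) below 0.05. The median member difference was -1.08 with mock and -1.69 with anti-miR-22, where the median over all probes was 0.00 in both. Gatm, Gamt and Ckb had no overlap between sham and Rhabdo arrays in either comparison, and Ckmt1 had none with anti-miR-22; 9.85% of all probes with mock and 11.2% with anti-miR-22 lay wholly lower in this way. Because whole tissue was measured, fewer cells of a type and less RNA per cell cannot be told apart.

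Gatm, the gene of the first enzyme, changed most. Its values in the sham - mock arrays were 15.64, 15.60, 15.28, 15.73 and 15.57. In the Rhabdo - mock arrays they ran from 8.68 through a median of 9.58 to 10.68. The highest injured array lay far below the lowest sham array. With n = 7 and n = 5, the fall was 57.7-fold (-5.85 ± 0.29 as log2 with SE, adjusted p = 1.43e-16 by limma). With anti-miR-22 the sham values were 16.31, 16.39, 16.49, 16.20 and 16.44, and the injured ones ran from 9.59 through 10.35 to 11.78. That fall was 58.9-fold (-5.88 ± 0.29, adjusted p = 9.53e-17). The spread between arrays was wider after injury, with an SD of 0.72 in Rhabdo - mock against 0.17 in sham - mock, and 0.70 against 0.12 with anti-miR-22.

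Gamt, the gene of the methylating enzyme, fell as well. Sham - mock arrays gave 8.78, 8.99, 7.90, 9.14 and 8.76, and Rhabdo - mock arrays ran from 6.02 through 6.56 to 7.77. The highest injured value, of Rhabdo - mock 6, was just under the lowest sham value, of sham - mock 3. The difference was -2.09 ± 0.22 (4.27-fold, adjusted p = 3.97e-09). With anti-miR-22 the sham values were 8.77, 8.92, 8.56, 9.31 and 8.91, and the injured arrays lay close together between 5.75 and 6.17 with a median of 6.01. The difference was -2.92 ± 0.22 (7.55-fold, adjusted p = 2.78e-12). Gamt lay above the array's own median on 6 of these 7 injured arrays.

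Ckb, the brain-type kinase gene, fell less steeply. Sham - mock arrays gave 10.18, 10.00, 9.70, 10.25 and 9.92, and Rhabdo - mock arrays ran from 7.92 through 8.40 to 9.05. The difference was -1.57 ± 0.16 (2.97-fold, adjusted p = 1.97e-09). With anti-miR-22, sham arrays gave 10.93, 10.42, 10.42, 10.71 and 11.04 and injured arrays ran from 8.55 through 8.82 to 9.02. That difference was -1.92 ± 0.16 (3.79-fold, adjusted p = 2.22e-11).

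Ckmt1, the ubiquitous mitochondrial kinase gene, showed the smallest called fall with mock. Sham - mock arrays gave 10.49, 10.77, 9.96, 10.77 and 10.07, and Rhabdo - mock arrays ran from 9.33 through 9.84 to 10.32, so the groups overlapped. The difference was -0.59 ± 0.18 (1.51-fold, adjusted p = 0.0107), with adjusted p values of 0.00166 to 0.0458 over the alternatives. With anti-miR-22 the groups were apart, with sham arrays at 10.31, 10.68, 10.00, 10.26 and 10.33 and injured arrays from 8.22 through 8.96 to 9.18. The fall there was 2.75-fold (-1.46 ± 0.18, adjusted p = 8.33e-08).

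Neither striated-muscle kinase gene passed the test. Ckm lay between 6.08 and 6.93 in sham - mock and between 5.67 and 6.38 in Rhabdo - mock, close to the array medians. Its difference was -0.27 with mock (95% interval of the fit -0.60 to 0.05, adjusted p = 0.2) and -0.28 with anti-miR-22 (-0.60 to 0.04, adjusted p = 0.183). Ckmt2 lay near the arrays' lower quartiles, between 3.44 and 4.34 on all 24 arrays, so no fold is given. Its differences were -0.04 (interval -0.33 to 0.25) with mock and -0.23 (-0.52 to 0.07) with anti-miR-22. Both intervals for Ckm and for Ckmt2 include 0. For Ckm, a fall of the size seen for Ckb lies outside both intervals. For Ckmt2 no such statement can be made, because its values lie near the bottom of the scale. The lowest single value on any array was 2.124, so a fall of that size could hardly have been shown.

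**Figure D1:**
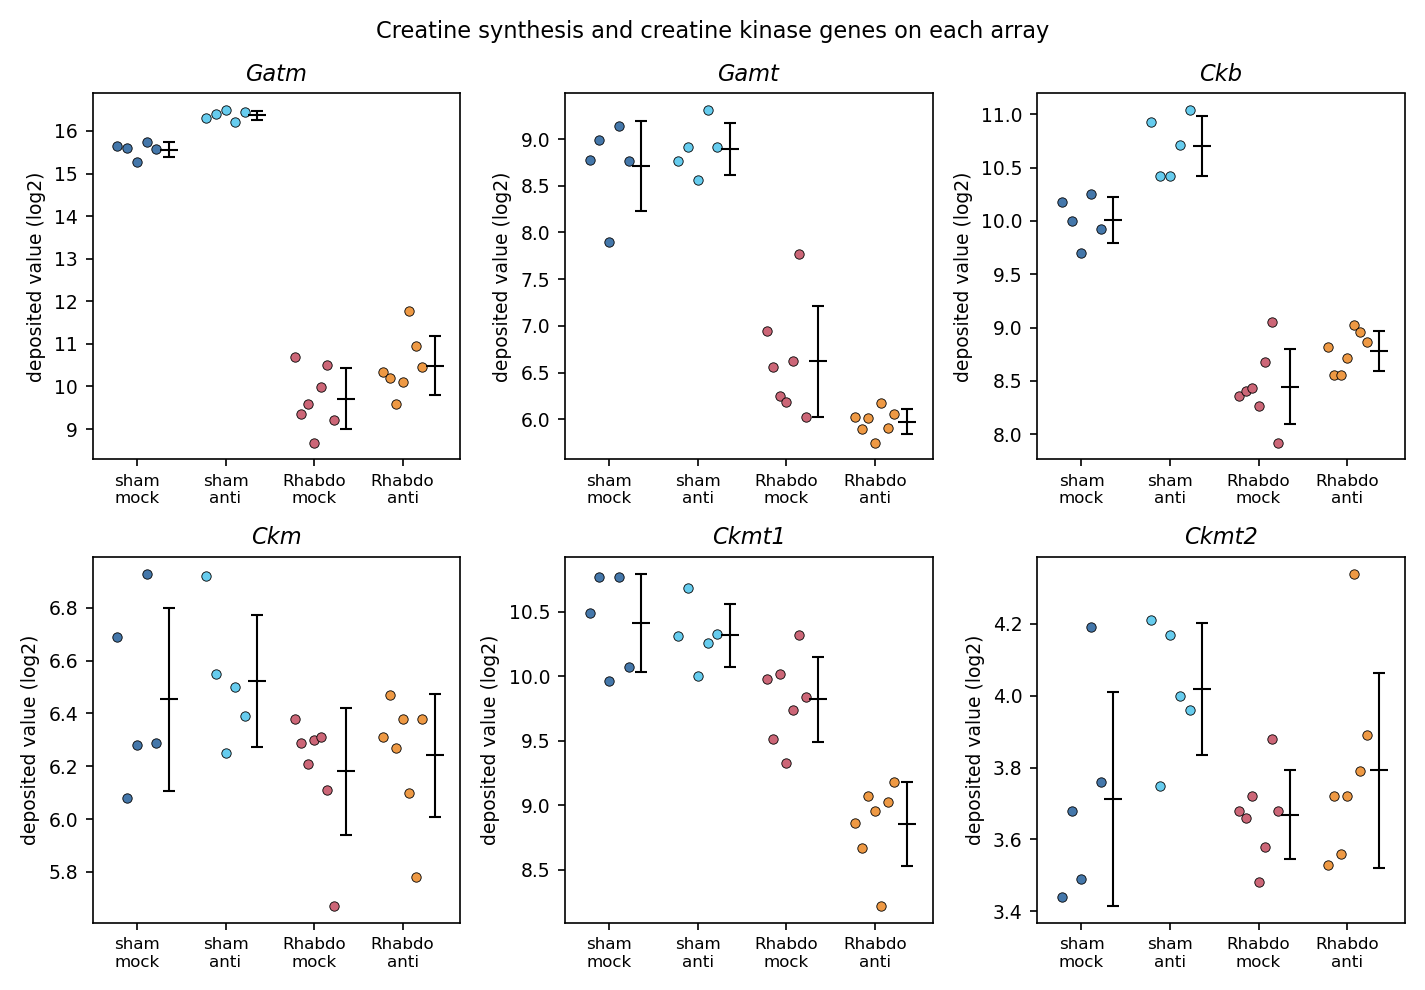
Each point is 1 array, the vertical axis is the deposited log2 value with its own range in each panel, and the bar beside each group is its mean with SD (5 sham and 7 Rhabdo arrays per oligonucleotide). Gatm drops from group means of 15.57 and 16.37 to 9.72 and 10.49, while Ckm and Ckmt2 overlap in all 4 groups.

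Glycerol destroys skeletal muscle, so muscle transcripts were read beside Ckm and Ckmt2. Of 25 skeletal muscle markers, 0 rose and 2 fell with mock (median -0.01), with 2 at an unadjusted p below 0.05 by limma. With anti-miR-22, 3 rose and 2 fell (median 0.03). Of all probes, 34.4% were called with mock and 37.4% with anti-miR-22. The mean log2 level of the list per array lay between 4.34 and 4.59 in sham - mock and between 4.34 and 4.60 in Rhabdo - mock. With anti-miR-22 it lay between 4.39 and 4.57 in sham and between 4.37 and 4.66 in injured arrays. The number of these 25 markers with a group mean above the array medians was 4 in sham - mock, 4 in sham - anti-miR-22, 5 in Rhabdo - mock and 6 in Rhabdo - anti-miR-22. Pygm (group means 8.04 to 8.93), Tnnc1 (7.09 to 7.39) and Tnnt1 (up to 6.78) lay above the array median on all 24 arrays. Acta1 and Mb lay below it on all 24: the skeletal actin gene Acta1 had group means of 3.81, 3.81, 3.97 and 3.75, and the myoglobin gene Mb 3.67, 3.70, 3.60 and 3.51, in the order sham - mock, sham - anti-miR-22, Rhabdo - mock, Rhabdo - anti-miR-22. Of 12 heart muscle markers, none had a group mean above the array medians in any group.

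Nephron markers moved with the members that fell. Of 19 proximal tubule markers, 18 fell with mock (median -1.49, range -4.78 to -0.21) and 19 with anti-miR-22 (median -2.25, range -5.38 to -0.30). The fall of Gatm lay below the lowest of these proximal tubule markers in both comparisons. Of 14 thick limb and distal convoluted tubule markers, 14 fell in each comparison (medians -2.66 and -2.65). Their ranges were -8.97 to -0.82 with mock and -9.45 to -0.72 with anti-miR-22, and the fall of Gatm lay within both. Of 12 collecting duct markers, 9 and 10 fell (medians -1.07 and -1.38). Of 8 smooth muscle markers, 5 rose and 0 fell in each comparison (medians 1.14 and 0.86). Of 11 macrophage markers, 7 rose and 1 fell with mock (median 0.78), and 6 rose and 1 fell with anti-miR-22 (median 0.51). The macrophage marker that fell was Csf1r, the receptor gene for a macrophage growth factor (-0.68 ± 0.18 and -1.69 ± 0.18), named here after its values were seen. Over all probes, 34.4% were called with mock (16.4% lower) and 37.4% with anti-miR-22 (17.6% lower). The part of any of these markers in the falls was not tested.

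**Figure D2:**
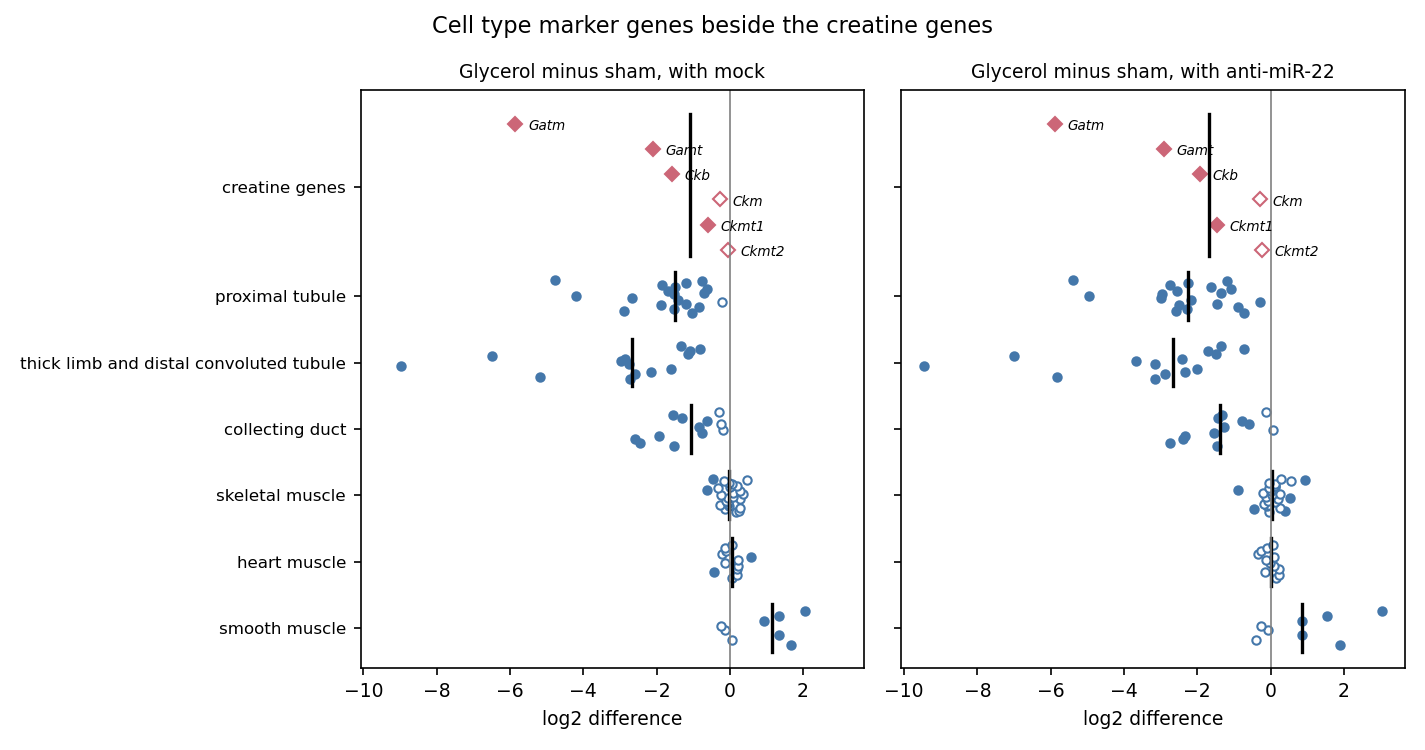
Each point is 1 gene and the horizontal axis is the log2 difference between glycerol and sham; filled symbols passed an adjusted p of 0.05, open ones did not, black lines are list medians and diamonds are the creatine genes. Gatm at -5.85 and -5.88 lies lower than all 19 proximal tubule markers, but within the span of the thick limb and distal list. The skeletal and heart muscle lists centre near 0, and the smooth muscle list has medians of 1.14 and 0.86.

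Creatine also enters and leaves cells through carriers, and these 2 moved in opposite directions. Slc6a8, the sodium-dependent creatine transporter, rose by 0.68 ± 0.14 with mock (adjusted p = 0.000227) and by 0.92 ± 0.14 with anti-miR-22 (2.74e-06). Without overlap, the values rose from 16.65 to 16.92 in sham - mock to 17.18 to 17.94 in Rhabdo - mock. Slc16a12, a monocarboxylate carrier family member that transports creatine, fell by 0.66 ± 0.13 (limma adjusted p = 0.000112), from sham - mock arrays between 13.88 and 14.15 to Rhabdo - mock arrays between 12.97 and 13.60. With anti-miR-22 its difference was -0.95 ± 0.13 (limma adjusted p = 3.82e-07).

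The genes around the pathway were read through 9 lists with 105 genes, of which 93 had a named probe. With mock 21 rose and 49 fell (median -0.41), and with anti-miR-22 20 rose and 51 fell (median -0.50). These counts stand beside the 34.4% and 37.4% of all probes called in the same comparisons.

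Substrate genes showed opposite movements. Of 12 arginine genes, 2 rose and 3 fell with mock, and 3 rose and 3 fell with anti-miR-22. Arg2, the mitochondrial arginase that competes for GATM's substrate, rose by 4.76 ± 0.25 (adjusted p = 6.14e-16), from sham arrays between 4.56 and 6.65 to injured arrays between 10.32 and 10.89. With anti-miR-22 its difference was 5.36 ± 0.25. Asl, the arginine-making argininosuccinate lyase, fell by 1.42 ± 0.16 with mock and fell by 1.44 ± 0.16 with anti-miR-22. Another list held 8 measured genes that use or carry ornithine, the other product of GATM, or act in linked polyamine and proline routes. Of these, 3 rose and 3 fell in each comparison. Srm, the spermidine synthase, rose 9.14-fold with mock and 9.97-fold with anti-miR-22, and Aldh18a1, of proline synthesis, rose from a dim sham mean of 4.36 by 1.02 ± 0.16. Sms, the spermine synthase, and Odc1, the ornithine decarboxylase, fell 1.61-fold and 1.54-fold with mock.

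Of 16 glycine and serine genes, 13 fell and 2 rose in both comparisons (medians -1.26 with mock and -0.99 with anti-miR-22). Amt and Shmt2, of the glycine cleavage system and mitochondrial serine-glycine exchange, fell 5.56-fold and 4.00-fold with mock. Psat1 and Phgdh, of serine synthesis, were the 2 that rose, 9.19-fold and 3.24-fold. Of 16 arginine and glycine transport genes, 8 fell and 4 rose in both. Slc6a19, the main neutral amino acid transporter of the brush border, fell 11.7-fold with mock, and the related Slc6a20b fell 6.97-fold. Slc7a1, a cationic amino acid transporter, rose 3.35-fold and Slc6a9, a glycine transporter, 2.08-fold.

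Of 14 methyl donor genes, 9 fell and 4 rose with mock, and 8 fell and 3 rose with anti-miR-22. The methyltransferase gene Inmt fell 15.8-fold and the cystathionine synthase gene Cbs 5.85-fold with mock. Mtap, which salvages methylthioadenosine, rose 2.40-fold, and Pemt, a phospholipid methyltransferase, 1.69-fold.

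Other routes of phosphate transfer had genes moving in both directions. Of 13 adenylate kinase and AMPK genes, 3 rose and 3 fell with mock (median -0.04), and 3 rose and 6 fell with anti-miR-22 (median -0.27). Ak4, a mitochondrial adenylate kinase, fell 21.5-fold with mock and 18.1-fold with anti-miR-22, and Prkaa2, a catalytic AMPK subunit, fell 1.87-fold with mock. The AMPK subunit genes Prkab1 and Prkaa1 rose 2.17-fold and 1.52-fold. Of 7 membrane proteins that work beside mitochondrial creatine kinase, 4 fell and 2 rose with mock, and 4 fell and 1 rose with anti-miR-22. The porin gene Vdac1 fell 1.81-fold and the adenine nucleotide carrier gene Slc25a4 1.74-fold, while Vdac3 rose 1.23-fold. The other that rose, Slc25a31, was dim in sham kidney (mean 2.91). All 5 measured nuclear receptor and coactivator genes fell in both comparisons. With mock, Ppargc1a, a coactivator of mitochondrial genes, was down 4.63-fold and Esrrb, an estrogen-related receptor, 3.72-fold. Esrrb was dim after injury, with a mean of 4.04 in Rhabdo - mock, near the arrays' lower quartiles.

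**Figure D3:**
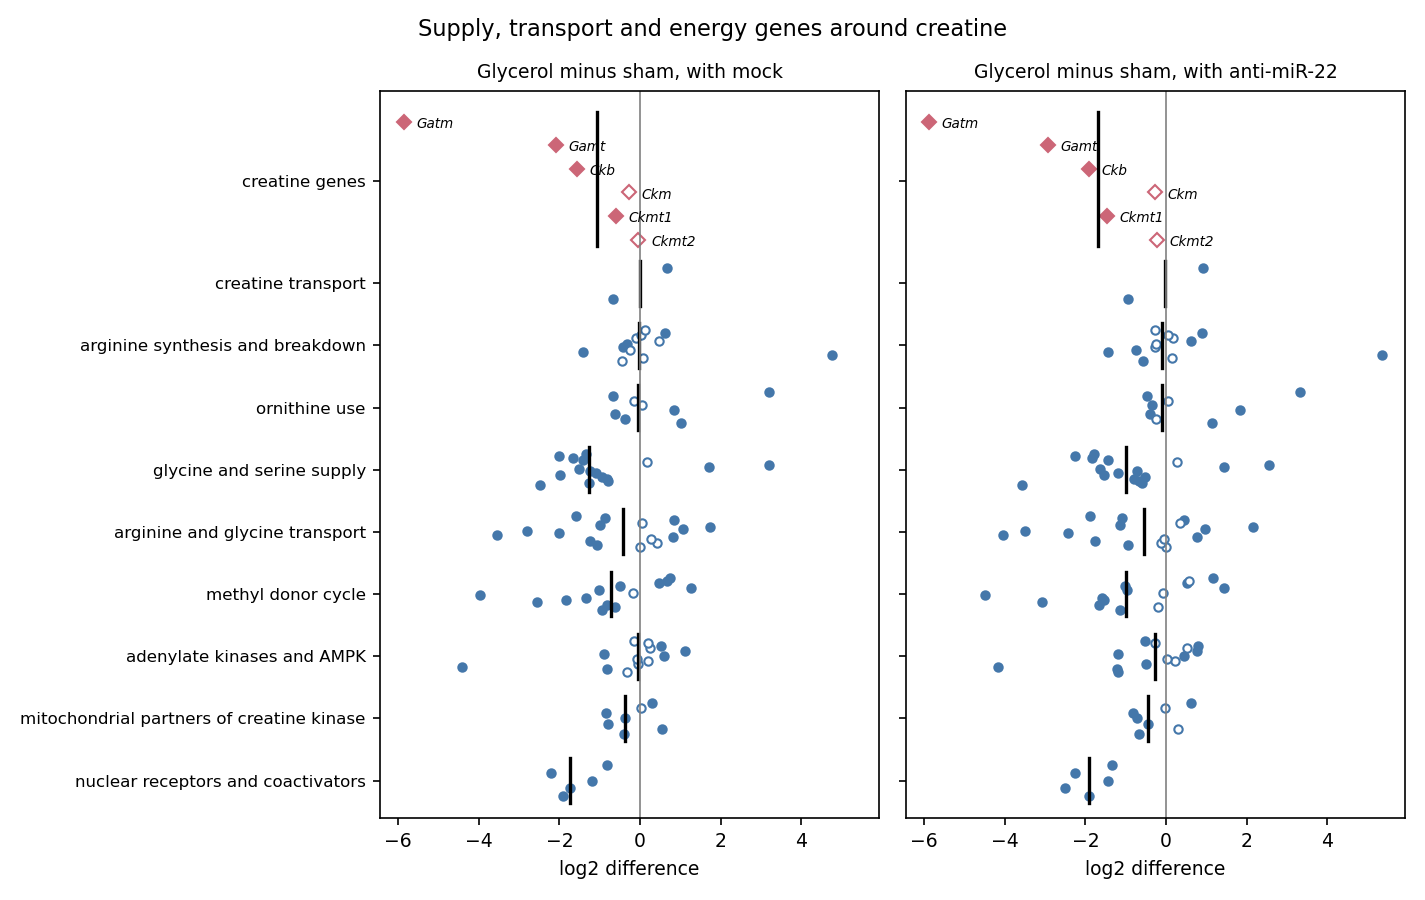
Each point is 1 gene of a pathway list and the horizontal axis is the log2 difference between glycerol and sham; filled symbols passed an adjusted p of 0.05, open ones did not, black lines are medians and diamonds are the creatine genes. The nuclear receptor and coactivator list lies wholly below 0, and Arg2, at 4.76 with mock and 5.36 with anti-miR-22, is the rightmost point in both panels.

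The effect of the oligonucleotide was read first in sham kidney. Ckb was higher with anti-miR-22, by 0.70 ± 0.17 (1.62-fold, n = 5 against 5, limma adjusted p = 0.00935), and was the 1 member of 6 that was called. Of all probes 7.16% were called, and 3.85% of all probes were called higher. All 5 anti-miR-22 arrays (10.42 to 11.04) lay above all 5 mock arrays (9.70 to 10.25), which was so for 4.32% of probes. Gatm had the same lack of overlap (16.20 to 16.49 against 15.28 to 15.73) and a difference of 0.80 ± 0.31. It did not pass the test in the fit of all 24 arrays (adjusted p = 0.13) and passed when only the sham arrays were fitted (SE 0.13, adjusted p = 0.0013). Gamt (0.18, interval -0.31 to 0.67), Ckm (0.07, -0.28 to 0.42), Ckmt1 (-0.10, -0.50 to 0.30) and Ckmt2 (0.31, -0.01 to 0.62) did not pass it.

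In injured kidney, 3 of 6 members were called with anti-miR-22, 1 higher and 2 lower, where 19.6% of all probes were called (9.48% higher, 10.2% lower). Ckmt1 was 1.95-fold lower (-0.96 ± 0.17, n = 7 against 7, limma adjusted p = 5.58e-05). All 7 anti-miR-22 arrays (8.22 to 9.18) lay below all 7 mock arrays (9.33 to 10.32), which was so for 3.92% of probes. This call held in all 31 alternatives.

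Gamt was also lower, by 0.65 ± 0.20 on the log2 scale (adjusted p = 0.0208), with overlapping arrays. Rhabdo - mock 6, the highest Gamt array of its group at 7.77, decided this call, since without it the difference was -0.46 and the adjusted p 0.0594. That array also had the lowest Havcr1 of its group (17.93, others 18.49 to 19.13) and the highest Slc12a1, a thick limb transporter gene (10.25, others 8.93 to 9.88); the part of this in the result was not tested. Gatm was higher, by 0.77 ± 0.26 (1.71-fold, adjusted p = 0.034). The call was lost without any 1 of Rhabdo - mock 2, 3, 4 or 7 or Rhabdo - anti-miR-22 5 or 6 (0.56 to 0.75, adjusted p 0.0565 to 0.105), and when only the injured arrays were fitted (adjusted p = 0.0854). Ckb had a difference of 0.34 ± 0.15 (adjusted p = 0.106), which passed without Rhabdo - mock 6 (0.44, adjusted p = 0.0211). Ckm (0.07, interval -0.23 to 0.36) and Ckmt2 (0.12, -0.15 to 0.39) did not pass the test.

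Proximal tubule markers were read beside these values. Of 19, 12 were lower and 2 higher with anti-miR-22 in injured kidney (median -0.70), and 0 were called in sham kidney, with 5 at an unadjusted p below 0.05 by limma (median -0.06). The difference of Gatm thus had the opposite sign to the list's median, and those of Gamt and Ckmt1 the same sign. Of 14 thick limb and distal markers, 3 were lower and 1 higher in injured kidney (median -0.25). In sham kidney 3 of these 14 were higher and 1 lower (median 0.13). Of 12 collecting duct markers, 3 were higher and 1 lower in injured kidney (median 0.09). In sham kidney 2 of these 12 were higher and 0 lower (median 0.07). The part of these markers in the member differences was not tested.

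**Figure D4:**
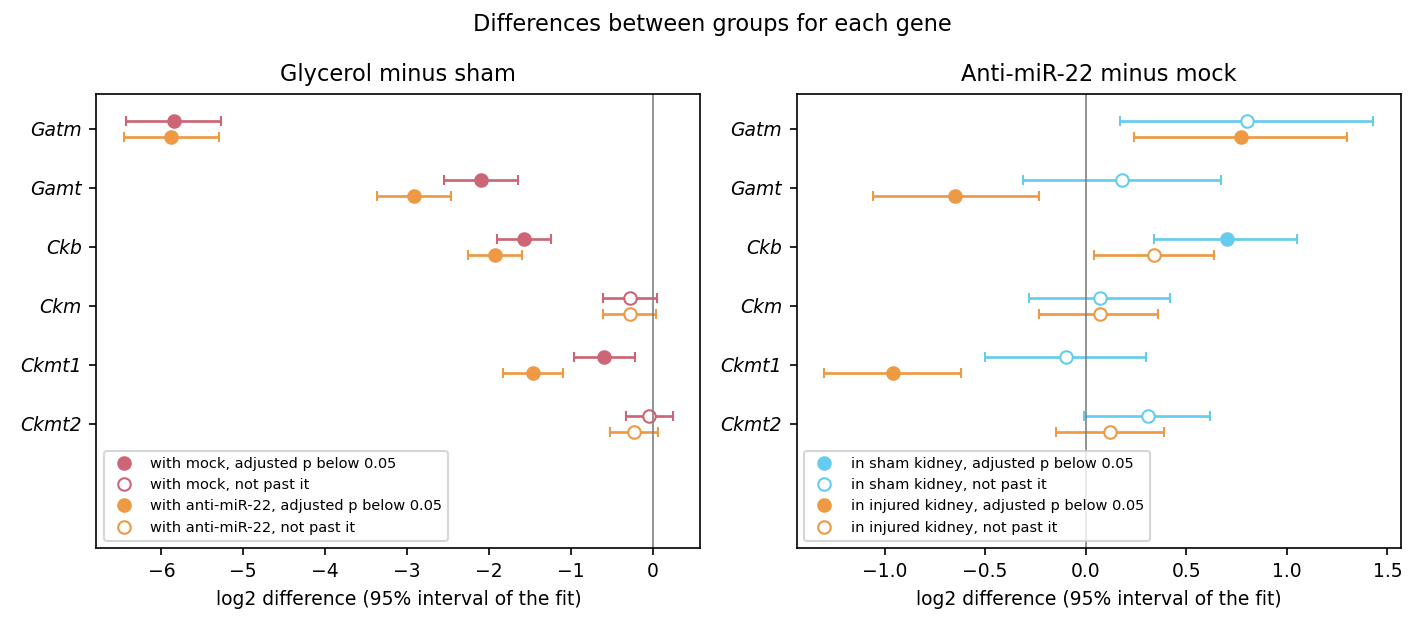
Points are log2 differences between group means with 95% intervals of the fit, for glycerol minus sham (left) and anti-miR-22 minus mock (right), on different horizontal scales; filled points passed an adjusted p of 0.05. On the right, Gatm and Ckb lie above 0 in both kidneys, while Ckmt1 is at -0.10 in sham and at -0.96 in injured kidney.

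Whether the glycerol response itself differed between oligonucleotides was tested as the difference of the responses. By limma 0 of 6 members passed, with 2 at an unadjusted p below 0.05, where 0.383% of all probes were called. Ckmt1 had a difference of -0.87 ± 0.26 (interval -1.39 to -0.34, unadjusted p = 0.00216, limma adjusted p = 0.114). Gamt had -0.82 ± 0.31 (-1.46 to -0.18, unadjusted p = 0.0133, limma adjusted p = 0.242). Gatm had -0.03 ± 0.40, with an interval of -0.86 to 0.79 that includes changes in either direction. So an anti-miR-22 effect particular to injured kidney was not shown for any member. In simulated data this comparison recovered 45% of shifts of 1 on the log2 scale and 3% of shifts of 0.5. Differences of the size seen for Ckmt1 and Gamt can therefore be missed.

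Among the 93 pathway genes, 3 were higher and 3 lower with anti-miR-22 in sham kidney, and 5 higher and 21 lower in injured kidney. Of all probes, 7.16% were called in sham kidney, and 9.48% were called higher and 10.2% lower in injured kidney. Ahcy, which clears the S-adenosylhomocysteine that GAMT forms, was lower in both (-0.79 ± 0.14 in sham, -0.99 ± 0.11 in injured, limma adjusted p = 0.00022 and 1.13e-07). Slc25a15, the mitochondrial ornithine carrier, had differences of -0.84 ± 0.14 and -1.24 ± 0.12, and Phgdh of -1.05 ± 0.29 and -1.32 ± 0.25. Chdh, the choline dehydrogenase, was higher by 0.82 ± 0.16 in sham and 0.94 ± 0.14 in injured kidney. Ak3 (0.66 ± 0.13) and Amt (0.64 ± 0.20) were called higher in sham kidney. In injured kidney Ahcyl2 was lower (-1.28 ± 0.15), and Dmgdh (0.69 ± 0.15) and Aldh18a1 (0.61 ± 0.15) were higher. The creatine transporter Slc6a8 passed in neither (-0.03, interval -0.34 to 0.28, in sham; 0.21, -0.05 to 0.47, in injured kidney). Slc16a12 did not pass in sham kidney (-0.08, -0.37 to 0.20) and was lower in injured kidney (-0.37 ± 0.12, limma adjusted p = 0.0235). In the difference of responses, 0 of the 93 passed by limma, with 15 at an unadjusted p below 0.05.

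The order of group means showed how far the members varied alike. For Gatm and Ckb it was sham - anti-miR-22, sham - mock, Rhabdo - anti-miR-22, Rhabdo - mock, from high to low, and the last pair of neighbours overlapped for both. For Gamt it was sham - anti-miR-22 (8.89 ± 0.28, SD), sham - mock (8.71 ± 0.48), Rhabdo - mock (6.62 ± 0.59) and Rhabdo - anti-miR-22 (5.97 ± 0.14), with overlap within each injury state. Ckmt1 had sham - mock (10.41 ± 0.38) and sham - anti-miR-22 (10.31 ± 0.24) together at the top, then Rhabdo - mock (9.82 ± 0.33) and, apart from it, Rhabdo - anti-miR-22 (8.86 ± 0.32). The 4 groups of Ckm (6.18 to 6.52) and of Ckmt2 (3.67 to 4.02) overlapped.

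Genes with the most similar pattern were taken by Pearson r over the 24 arrays, as a description, since the arrays share the split into sham and injured. The closest to Gatm were Acss2 (0.99), an acetyl-CoA synthetase gene, Cldn8 (0.989), a claudin gene, and Slc15a2 (0.988), a peptide transporter gene; with group means removed, r was 0.721, 0.732 and 0.73. Acss2 also headed the list of Ckb (0.968; 0.72 with group means removed), followed by Cmah (0.967; 0.674) and Slc34a3 (0.965; 0.482). Gamt was closest to Slc6a20b (0.976; 0.722), Fbxo36 (0.974; 0.672) and Coq8a (0.974; 0.636). Ckmt1 was closest to Slc16a5 (0.925; 0.726), Idh3a (0.912; 0.588), a subunit gene of the mitochondrial isocitrate dehydrogenase, and Tmed4 (0.9; 0.372). For Ckm they were Ric1 (0.752; 0.662), Ttll5 (0.718; 0.609) and Tkfc (0.717; 0.601). For Ckmt2 they were Kcnj14 (0.719; 0.691), Gm5476 (0.709; 0.674) and Far2 (0.69; 0.701). The r over all arrays was thus lower for Ckm and Ckmt2 than for the other members. The r with group means removed cannot be compared between members, because the 3 genes were picked for high r among 19504. For Ckm and Ckmt2, whose groups overlapped, that pick acts mostly on the spread within groups. The 3 genes picked for Ckmt2 were also dim, with group means of 3.63 to 4.78.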

How the data were processed

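The 22206 lines and 24 columns of the deposited table hold log2 values, 1 per probe and array. Per the submitters' processing notes, RMA and Partek 6.4 were used, with no role or setting given; RMA corrects background, normalizes between arrays and summarises probes, and can compress dim and very bright probes. 1 line with missing values was left out, leaving 22205 probes, of which 19572 had 1 gene symbol, 0 several and 2633 none; members matched by symbol. limma 3.58.1 (lmFit, eBayes; R 4.3.3) fitted the 4 group means to all 24 arrays, two-sided, with Benjamini-Hochberg adjustment over all probes. A fold is 2 to the power of the difference on the deposited log2 scale. No array depth, detection call or batch was used. The fit was tested on simulated data. The members and lists were chosen with earlier results of these data known. Named pathway genes were up to 2 called per direction and list (largest with mock), up to 3 per direction for anti-miR-22, and both creatine carriers. The closest 3 genes per member followed a rule. Named marker genes could be any gene of their list, with no rule for the pick. Csf1r, and Havcr1 and Slc12a1 on single arrays, were chosen after their values were seen. Alternatives were array centring, a second quantile normalization, a filter on dim probes (below 3.97), trended robust moderation, 2-group fits, array weights, a replicate block and each array left out.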

Additional observations from a re-analysis of the deposited data

Results flagged for a closer look

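In the Rhabdo - mock group, array 7 had a Ckm value of 5.67, far below the other 6 arrays of the group (6.11 to 6.38). Of 24 groups of values examined for such a gap, this was the 1 found. Chance gives such a gap in about 1 in 20 groups, so finding 1 is near what chance gives. Without that array the Ckm difference between anti-miR-22 and mock in injured kidney was -0.02 instead of 0.07, and neither passed the test.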

How the results depend on the processing

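Of 30 member differences, 20 kept their direction and their side of the threshold in all alternatives, among them the 8 called falls after glycerol. For Gatm with anti-miR-22 in injured kidney (0.77), trended robust moderation gave an adjusted p of 0.0611 and the 2-group fit one of 0.0854 at the same difference; leaving out arrays gave 0.56 to 0.93. For Gamt there the range was -0.75 to -0.46, and for Ckb 0.25 to 0.44, with 0.39 (adjusted p = 0.0485) under array weights. In sham kidney the 2-group fit called Gatm (0.80), making 2 members called. Direction changed only for 6 differences that were not called: Ckmt2 with mock after glycerol (-0.11 to 0.08 over omitted arrays), Gamt (-0.02 to 0.28) and Ckm (-0.03 to 0.19) with anti-miR-22 in sham kidney, Ckm in injured kidney (-0.02 to 0.14), and the differences of responses for Gatm (-0.25 to 0.13; 0.00 with array weights) and Ckm (-0.12 to 0.09). The 85 probes called in the difference of responses became 136 after a second quantile normalization, 137 without dim probes, 173 with trended robust moderation, 141 with array weights and 28 to 138 without 1 array. The cause of these changes was not tested. Same-numbered arrays deviated together at r of -0.108 to 0.102 over 22 pairs, and 4 of 22 correlated best with their own number. These values show no strong pairing by number and cannot exclude a weak one. Between the injured groups the r ran from -0.0186 to 0.102. With a replicate block, probes called were 7366 with mock, 8060 with anti-miR-22, 1562 in sham, 4451 in injured kidney and 89 in the difference. No member's call changed with this block (Gatm -5.92 with mock). No member had another probe, so that alternative was not run. The number of arrays limits precision, and Ckmt2 is limited by its dim signal.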
